A study of Rattus norvegicus with 23 samples.

Results

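The miRs of the imprinted Dlk1-Dio3 locus were followed in small RNA of rat muscle-derived stem cells (MDSC). They were taken by name, as the rat entries that carry 1 of 43 miR numbers known from this locus, with any letter or arm suffix. The rule uses no measured value, but it was chosen with earlier results of these data known. This gave 88 of the 792 miR entries counted in each of 23 libraries. In all, 69 members had at least 1 read and 19 were listed at 0 in every library, or 21.6% of the members, against 19.2% of all entries.

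The libraries came from 5 kinds of stem cell of rats of the Zucker fatty (ZF) and Zucker lean (ZL) strains. ZF4-SC and ZL4-SC were female cells from the pelvic floor (levator ani) of rats of 12 weeks, ZF4-SC of the obese strain (ZF) and ZL4-SC of the lean strain (ZL). The male cells came from limb muscle: ED-MDSC of rats with early diabetes (ZF, 12 weeks), LD-MDSC of rats with late diabetes (ZF, 32 weeks), and a stem cell labelled as non-diabetic, ND-MDSC, whose age is not in the labels. Each was grown as 1 selected and passaged culture, so libraries of 1 stem cell are not separate animals. The serum run held ZF4-SC and ZL4-SC with OZ serum (of the obese strain), with LZ serum (of the non-obese strain) and without addition (C), and ND-MDSC with OZ serum and as C. The male run held ED-MDSC with OZ serum, LZ serum, cholesterol, its carrier cyclodextrin, or albumin, ED-MDSC-C and LD-MDSC-C. The lipid run held ZF4-SC with palmitate at 0.5 and 1 mM, its carrier albumin, cholesterol at 50 and 100 mg/dl, 2 libraries with cyclodextrin, and a second ZF4-SC-C library. Serum was given at 5%, and all agents for 4 days. The agent labels name OZ or LZ serum without the sex of its donors. In the study, sera of female rats were given to the female cells, and male sera to ED-MDSC in a scratch assay. Apart from ZF4-SC-C and the cyclodextrin of the lipid run there was 1 library per condition, and nothing says that these came from separate cultures. A ratio between 2 libraries therefore has an interval for counting error only and no test.

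In mammals, the Dlk1-Dio3 locus is imprinted. The protein-coding genes Dlk1, Rtl1 and Dio3 are active on the paternal copy, and long non-coding RNAs (Meg3, an Rtl1 antisense transcript, Rian and Mirg) on the maternal copy, and it is these maternal transcripts that carry most miRs of the locus as hairpins. In mouse, the miRs are abundant in embryo, placenta and brain, most fall after birth, and silencing of the maternal transcripts marks stem cells of lower potency. The miRs opposite Rtl1, such as miR-127, pair perfectly with the Rtl1 mRNA and repress it. The rule also takes in an outer hairpin at each end of the locus, miR-770 in the Meg3 gene and miR-1247 beside Dio3, whose 5p arm is known in human cartilage cells to repress SOX9.

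RefSeq (GRCr8) gave a mature sequence for 86 members, all on chromosome 6, with 807.8 kb between the starts of miR-770-5p and miR-1247-5p. The members below are shown because they carried most reads, passed a test, or share bases on opposite strands. Capitals mark the seed, bases 2 to 8, through which a miR finds its targets.
rno-miR-127-3p: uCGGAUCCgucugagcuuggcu
rno-miR-434-5p: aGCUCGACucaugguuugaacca
rno-miR-370-3p: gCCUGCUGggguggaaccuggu
rno-miR-379-5p: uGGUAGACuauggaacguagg
rno-miR-411-5p: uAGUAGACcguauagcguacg
rno-miR-541-5p: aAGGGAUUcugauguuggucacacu
rno-miR-409a-5p: aGGUUACCcgagcaacuuugcau
rno-miR-409a-3p: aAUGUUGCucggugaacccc
rno-miR-409b: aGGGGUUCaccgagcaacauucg
rno-miR-1247-5p: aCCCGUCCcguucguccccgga
rno-miR-1247-3p: cGGGAACGucgagacuggagc
In locus order, miR-127-3p (134328510 to 134328531) and miR-434-5p (134330413 to 134330435) lie inside the span of Rtl1 (134325231 to 134335780). MiR-370-3p starts at 134354538, and the miR-379/410 array runs from miR-379-5p at 134543460 past miR-411-5p at 134544604 and miR-541-5p at 134578434 to miR-409a-5p at 134579198 and beyond, and the entries named so far are on the plus strand. MiR-409b (134579229 to 134579251), both arms of miR-299b and both arms of miR-1247 (135105895 to 135105952, before Dio3 at 135107072) lie on the minus strand.

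Members seldom shared a seed. The 86 sequences had 79 different seeds, and 6 seeds were shared by 13 members, all of them with few reads. The shared seed with the most reads was AGGUCAC, with 89 reads of miR-1193-3p and 1 of miR-370-5p over all libraries. The GGUUGUC seed of miR-494-5p, miR-496-5p and miR-410-5p had 7, 1 and 3 reads. The other 4 were AUGUGGG (miR-299a-3p with 7 reads, miR-299b-3p with 0), UGGAUAU (miR-376b-5p with 3, miR-376c-5p with 0), AUACAAG (miR-381-3p with 2, miR-539-3p with 0) and GGUUUAC (miR-299a-5p and miR-299b-5p with 0). MiR-379-5p and miR-411-5p, neighbours in the array, had the run of 6 bases GUAGAC in common, which starts at base 3 of each, but their seeds differ at the base before it.

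Which strand a read was assigned to matters for some members. The 20 bases of miR-409a-3p are the reverse complement of bases 2 to 21 of miR-409b, which is annotated on the opposite strand of the same hairpin. MiR-409b had 766 reads and miR-409a-3p had 0, while miR-409a-5p, the other arm, had 2361. Likewise miR-434-3p and miR-382-3p, each complementary over its whole length to an entry of the opposite strand, had 0 reads beside 155 of miR-434-5p and 185 of miR-382-5p. In total 13 members belonged to pairs of entries on overlapping bases of opposite strands. Of the 10 pairs with a member, 3 were complementary over only a part of each entry. Of the 13 members, 10 were at 0 in every library, against 9 of the other 75 members. How the counting treated strand is not given in the sources used here, so reads of miR-409a-3p and miR-409b cannot be told apart, and the level of every member in such a pair is uncertain.

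The arms of a hairpin were mostly unequal. Both arms were listed for 41 hairpins, and 25 had at least 20 reads. In 3 of these, miR-409a, miR-382 and miR-434, the 3p arm at 0 belongs to an opposite-strand pair, so their arms cannot be compared. Of the other 22, 9 were led by the 5p arm and 13 by the 3p arm, with over 90% of the reads on the leading arm in 13. MiR-541, the only one of them averaging 100 reads or more per library, was led by 5p, with 3271 reads against 10 of the 3p arm. MiR-127 was led by its 3p arm, with 430 reads against 2. MiR-1247 was less unequal, with 906 reads of 5p and 326 of 3p.

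The cluster was a small part of the reads in every library. The members held 11869 of 100708634 reads, or 0.0118%, with 0.00252% to 0.124% in single libraries. Libraries of the lipid run had 104902 to 4783062 reads, those of the male run 1701574 to 3840523 and those of the serum run 6492161 to 13271580, and 3 to 42 members had a read in a library. The miR-379/410 array held 80.3% of the cluster reads, the outer hairpins miR-770 and miR-1247 10.8%, the Rtl1 group 7.26% and the Rian miRs 1.65%. The Rtl1 group was taken by name and has 16 entries, of which 7 were matched inside the span of Rtl1. As whole cultures were sequenced, fewer cells that use the locus and less RNA per cell cannot be told apart in any value here.

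Levels are given as counts per 1000000 reads of the library (CPM). Summed over the 88 members, the cluster differed 49.2-fold between the highest and the lowest library. In the serum run it had 25.2 CPM (95% Wilson interval 21.98 to 28.9) in ZF4-SC with OZ serum, 254.0 with LZ serum and 259.4 (247.3 to 272.1) in ZF4-SC-C. ZL4-SC had 111.9 with OZ serum, 82.2 with LZ serum and 79.3 as C, and ND-MDSC 69.999 with OZ serum and 66.2 as C. ZF4-SC with OZ serum thus had the lowest value of all 23 libraries, beside 2 of the highest in its run. In the male run, ED-MDSC had 248.8 with OZ serum, 91.4 with LZ serum, 102.7 with cholesterol, 146.9 with cyclodextrin and 151.5 with albumin, LD-MDSC-C had 30.9 (23.8 to 40.0) and ED-MDSC-C 107.0. In the lipid run the values were 39.9 with albumin, 346.8 and 1239 with palmitate at 0.5 and 1 mM, 624.4 and 192.4 with cyclodextrin, 138.7 and 158.8 with cholesterol at 50 and 100 mg/dl, and 37.1 in ZF4-SC-C.

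**Figure D1:**
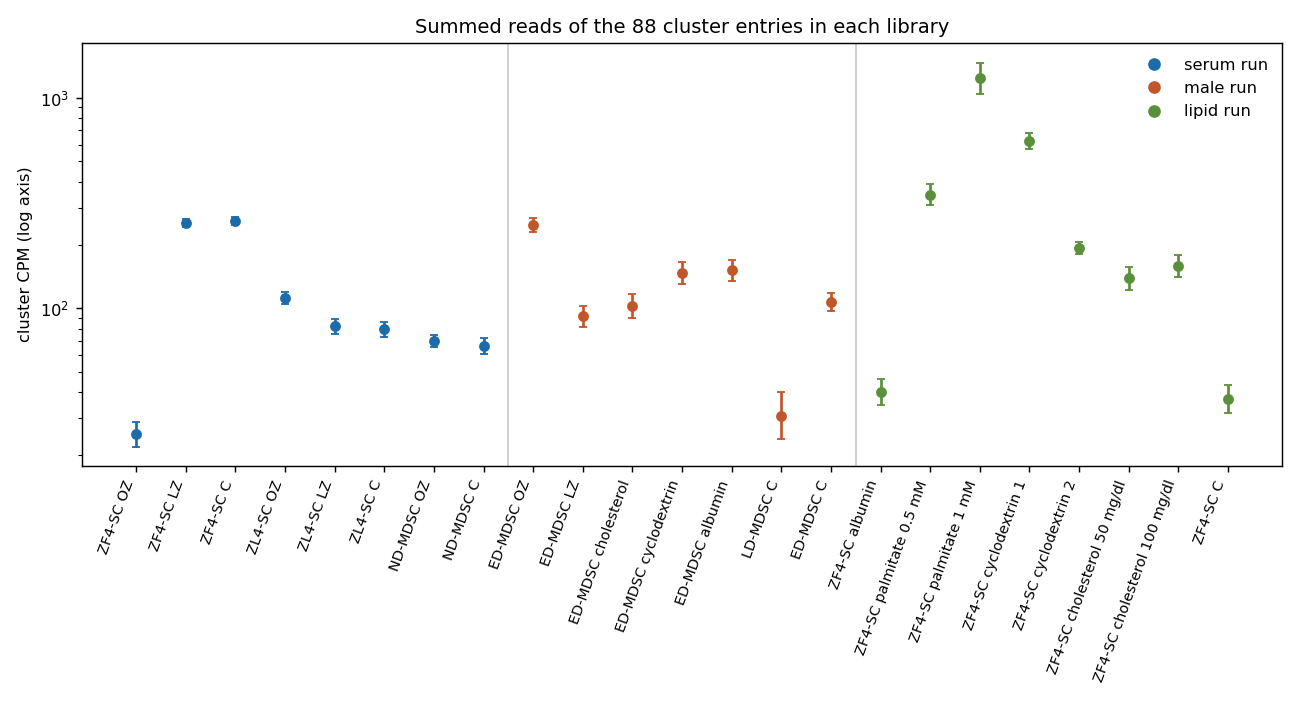
Summed reads of the 88 members in CPM (log axis), with 95% Wilson intervals that cover counting error only, 1 point per library, coloured by run; ZF4-SC-C was sequenced in the serum run and again in the lipid run. ZF4-SC with OZ serum is lowest at 25.2 and ZF4-SC with palmitate at 1 mM highest at 1239.

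The second ZF4-SC-C library, of the lipid run, did not have the level of the first. Its cluster sum was 37.1 CPM against 259.4 in the serum run, a ratio of 0.143 (exact 95% interval 0.121 to 0.168). Of 12 members averaging 10 reads or more in the 2 libraries, 10 were at least 2-fold lower, where 28.8% of all 274 such miRs were, and the median ratio was 0.118 for the members and 0.789 for all. Of the 12, 7 had under 10 reads in the lipid run and reached this average only through the serum run, which fixes their direction, so such counts and medians are a description here and in the pairs of libraries below. MiR-541-5p, with 8 reads against 617, and miR-409a-5p, with 11 against 510, made up most of this. MiR-127-3p, at 8.65 against 7.70 CPM, and miR-411-5p, at 7.51 against 7.24, differed by less than their counting intervals. Both libraries have the same labels, so this is the only measure of the spread between ZF4-SC-C libraries, and the run is not separated from it. Apart from this pair of ZF4-SC-C libraries, ratios from here on therefore stay within a run. Tests over several runs set libraries of the same stem cell against each other. An order over libraries of several runs is a description only.

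The 6 members with the highest mean level held 76.5% of the cluster reads. MiR-541-5p, in CPM, had 5.60, 108 and 95.04 in ZF4-SC with OZ serum, LZ serum and as C, 44.3, 24.5 and 18.05 in ZL4-SC in the same order, and 10.7 with OZ serum and 14.1 as C in ND-MDSC. In ED-MDSC it had 11.9 with OZ serum, 8.99 with LZ serum, 24.0 with cholesterol, 38.2 with cyclodextrin, 17.3 with albumin and 27.9 as C, and LD-MDSC-C had 0.542. ZF4-SC with OZ serum stood below every other library of the serum run in this miR, and LD-MDSC-C below every other library of the male run. In the lipid run miR-541-5p lay between 0, with palmitate at 1 mM, and 136.8 in the first cyclodextrin library.

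MiR-409a-5p, like miR-541-5p, was lowest of the serum run in ZF4-SC with OZ serum, but the 2 did not move together in other stem cells. With OZ serum over C, miR-541-5p was at 0.429 and miR-409a-5p at 2.35 times in ED-MDSC, and at 2.45 and 0.939 times in ZL4-SC. MiR-409a-5p had 3.77, 59.5 and 78.6 CPM in ZF4-SC with OZ serum, LZ serum and as C, 26.0, 24.5 and 27.7 in ZL4-SC, and 9.27 and 5.92 in ND-MDSC with OZ serum and as C. Across ED-MDSC it ran from 13.4 with cholesterol to 49.0 with OZ serum, with 20.8 in ED-MDSC-C, and LD-MDSC-C had 3.79. MiR-409b, which cannot be told from miR-409a-3p, had 75.2 with OZ serum, 19.2 with LZ serum and 5.47 as C in ED-MDSC, the first of these its highest level of all 23 libraries, and 1.10, 13.1 and 18.3 in ZF4-SC.

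MiR-411-5p, the second hairpin of the array, which represses YAF2 in mouse myoblasts, was the only member found in all 23 libraries. In the serum run it varied little, from 4.16 to 8.55 CPM over the 6 libraries of ZF4-SC and ZL4-SC, and was 1.21 and 1.18 in ND-MDSC with OZ serum and as C. ED-MDSC had 1.80 to 5.57 and LD-MDSC-C 1.63. The lipid run spanned 5.85 to 1134, and this miR alone was 91.5% of the cluster reads with palmitate at 1 mM. MiR-127-3p, opposite Rtl1, had 0.608 to 7.78 in ZF4-SC and ZL4-SC of the serum run, 0.960 to 17.9 in ED-MDSC, and 1 read in both ND-MDSC libraries together.

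MiR-1247-5p had another pattern than the array. It had 21.5 CPM in ND-MDSC with OZ serum and 25.7 in ND-MDSC-C. In ED-MDSC it had 0 reads with OZ serum and 0 with LZ serum, where 3 reads would have been 1.19 and 0.899 CPM, against 32.6 CPM with cholesterol, 35.3 with cyclodextrin, 48.0 with albumin and 24.5 as C. The 2 ED-MDSC libraries with rat serum and the 4 without it did not overlap. How many of all miRs were apart in this way was not counted. Against C, 44 of all 288 miRs averaging 10 reads or more were at least 2-fold lower with OZ serum, and 48 of 291 with LZ serum. LD-MDSC-C had 2 reads, and none of the 14 female libraries exceeded 6.26 CPM.

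**Figure D2:**
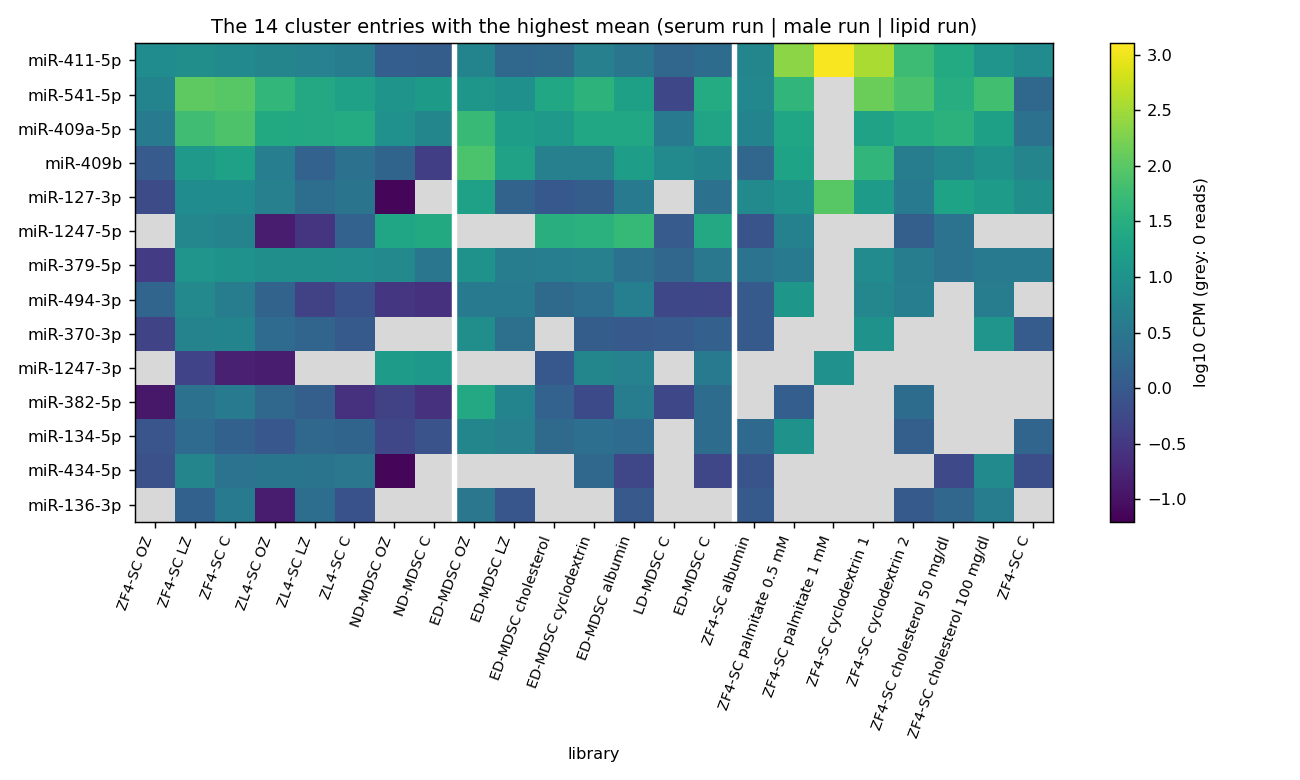
Level of the 14 members with the highest mean in each library, as log10 of CPM (grey, 0 reads), with the serum, male and lipid runs side by side. MiR-541-5p and miR-409a-5p are dim in ZF4-SC with OZ serum (5.60 and 3.77 CPM), miR-1247-5p is bright in ND-MDSC and grey in ED-MDSC with either serum, and miR-411-5p is brightest with palmitate at 1 mM (1134).

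Pelvic floor and limb stem cells were set against each other within the serum run, with 4 libraries of ZF4-SC and ZL4-SC (OZ serum and C) and 2 of ND-MDSC. Of 11 members averaging 10 reads or more, 6 passed the threshold (adjusted p of 0.05, Benjamini-Hochberg over all miRs tested, edgeR quasi-likelihood test), where 19.1% of all 293 miRs did. Of these, 4 were higher in the pelvic floor cells: miR-411-5p, miR-434-5p and miR-127-3p of the array and the Rtl1 group, and miR-370-3p of the Rian group. Both arms of miR-1247 were lower. Of the 6, miR-434-5p, miR-127-3p, miR-370-3p and miR-1247-3p averaged under 10 reads in the group where they were lower and passed the filter on low counts only through the other group, so the count of 6 is a description. MiR-411-5p and miR-1247-5p averaged 10 reads or more in both groups, as did 4 members that did not pass. The median log2 difference was 2.23 over the members tested and -0.03 over all miRs, and the lists share libraries with the other comparisons. Sex, muscle and isolation differ together between these stem cells, and the limb side is a single line, ND-MDSC, so these cannot be told apart. ED-MDSC, also of limb muscle but in the male run, had 0.960 to 17.9 CPM of miR-127-3p and 0 to 8.36 of miR-370-3p. The 6 pelvic floor libraries of the serum run had 0.608 to 7.78 and 0.487 to 5.55. For miR-434-5p, ED-MDSC had 0 to 1.76 against 0.730 to 5.65, and for miR-411-5p 1.80 to 5.57 against 4.16 to 8.55.

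The miRs opposite Rtl1 and beside Rian were close to absent from ND-MDSC. MiR-127-3p had 5, 35, 22 and 50 reads in ZF4-SC and ZL4-SC with OZ serum and in ZL4-SC-C and ZF4-SC-C, against 1 and 0 in ND-MDSC with OZ serum and as C. Pooled, that was 112 reads against 1, a ratio of 78.3 (exact 95% interval 13.8 to 3121, counting error only), and a log2 difference of 5.87 ± 1.39 (SE; edgeR adjusted p = 0.0272). MiR-434-5p, which like miR-127 lies opposite Rtl1, had 71 reads pooled against 1, a ratio of 49.7 (8.63 to 1988; log2 difference 5.31 ± 1.25; edgeR adjusted p = 0.0267). MiR-370-3p had 4 to 36 reads per pelvic floor library and 0 in both ND-MDSC libraries, and was at least 14.7-fold higher, taking 3 reads over the 2 ND-MDSC libraries as the floor (edgeR adjusted p = 0.0294). The values of the pelvic floor and limb libraries did not overlap in any of the 3. All 3 passed the filter only through the pelvic floor libraries, and how many of all miRs were apart in this way was not counted.

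The array differed less, and of its members tested only miR-411-5p passed, where 19.1% of all 293 miRs did. MiR-411-5p had 63, 43, 32 and 47 reads in the 4 pelvic floor libraries against 16 and 9 in ND-MDSC with OZ serum and as C, with a log2 difference of 2.45 ± 0.56 (SE; edgeR adjusted p = 0.0249). MiR-494-3p had a log2 difference of 2.69 ± 0.87 and an adjusted p of 0.0713 in the edgeR test, and miR-541-5p, miR-409a-5p, miR-409b and miR-379-5p had differences of 0.40 to 2.23 with an adjusted p of 0.244 to 0.835. MiR-1247-3p, with 0, 1, 0 and 1 reads against 191 and 93, was lower by a log2 difference of -7.27 ± 0.82 (edgeR adjusted p = 0.00256). It passed the filter on low counts only through ND-MDSC, which fixes its direction. MiR-1247-5p, with 0, 1, 11 and 34 reads against 285 and 195, was lower by -5.20 ± 1.19 (edgeR adjusted p = 0.0249).

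These calls lean on few libraries. Leaving out ZL4-SC with OZ serum left 1 of the 6 calls, where 16 of all 292 miRs passed, against 56 of 293 with all libraries. Leaving out ZF4-SC-C left 4, where 61 of all 289 miRs passed. Leaving out either ND-MDSC library leaves 1 on the limb side, so only effect sizes are given for those fits. Directions were kept wherever the members were tested, but miR-370-3p fell under the filter without ZL4-SC with OZ serum and without ZF4-SC-C, and miR-434-5p without ZL4-SC-C. The log2 difference of miR-1247-5p was -8.15 without ND-MDSC-C and -2.85 without ND-MDSC with OZ serum, that of miR-127-3p 4.83 and 8.19, and that of miR-434-5p 4.31 and 7.56, while miR-411-5p stayed at 2.33 to 2.55 whichever library was left out. Neural miRs were at 104.0 to 269.1 CPM in the 6 pelvic floor libraries of the run (3 of 4 listed miRs with reads, miR-124-3p at 0) and 59.8 to 109.5 in ND-MDSC, and their part in the comparison was not tested.

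**Figure D3:**
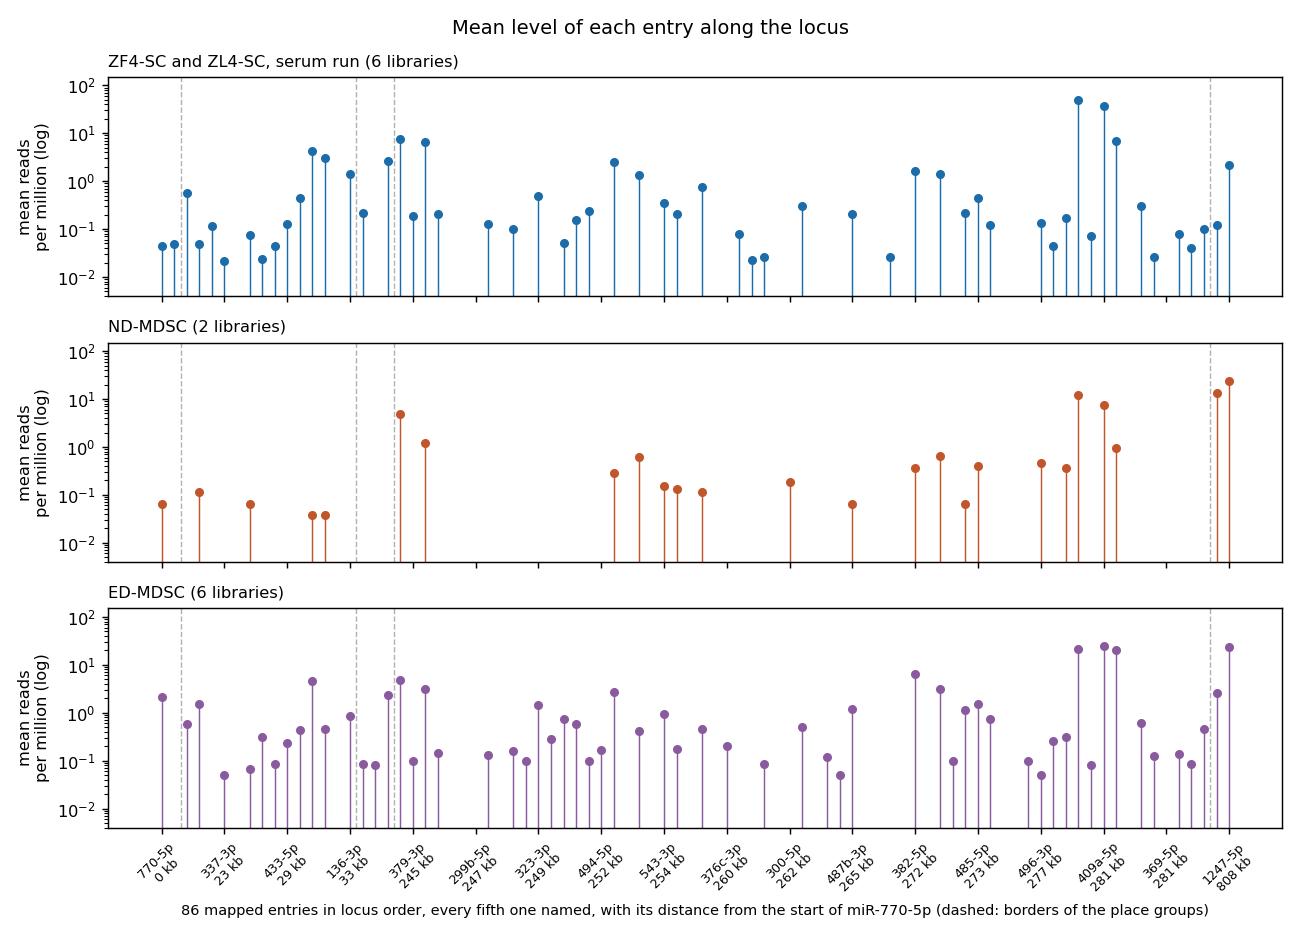
Mean CPM (log axis) of the 86 mapped members in their order along the locus, for ZF4-SC and ZL4-SC of the serum run (6 libraries), ND-MDSC (2) and ED-MDSC (6), with no mark where all reads were 0 and with each named entry's distance from the start of miR-770-5p. In ND-MDSC the stretch between miR-770 and the array is nearly empty and miR-1247 at the right end is the highest point.

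ZF4-SC and ZL4-SC were compared over OZ serum, LZ serum and C. None of 12 members tested passed the threshold, where 26.5% of all 279 miRs did. No member had an unadjusted p under 0.05 in edgeR, and DESeq2 called 0 as well. The smallest adjusted p was that of miR-494-3p (log2 difference 1.49 ± 0.66, SE; edgeR adjusted p = 0.175), before miR-1247-5p (1.74 ± 0.88; edgeR adjusted p = 0.223) and miR-379-5p (-1.43 ± 0.84; edgeR adjusted p = 0.281). The median log2 difference was 0.09 over the members and -0.08 over all miRs.

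This count of 0, like the calls over all miRs, changed when either OZ serum library was left out. In ZF4-SC the 3 libraries were far apart, with 5.60, 108 and 95.04 CPM of miR-541-5p, and in ZL4-SC closer, with 44.3, 24.5 and 18.05. Without ZF4-SC with OZ serum 6 of 14 members passed, all higher in ZF4-SC, where 151 of all 278 miRs did. Without ZL4-SC with OZ serum 5 of 14 passed, all of them among the 6, where 140 of all 282 miRs did. These were miR-541-5p, miR-409b, miR-494-3p, miR-409a-5p and miR-1247-5p, with miR-370-3p as the sixth. They were named after their values were seen. With agent as a block, leaving out either OZ serum library leaves the other with no partner. Both fits then set the same LZ serum and C libraries against each other, so the overlap of their lists adds no support. In both fits the share of members that passed was below that of all miRs. Without ZF4-SC with OZ serum, the log2 difference of miR-541-5p was 1.49 ± 0.18 (SE; edgeR adjusted p = 1.8e-07). As single libraries, ZF4-SC-C had 3.27 times (2.98 to 3.59) the cluster sum of ZL4-SC-C by library totals and 1.57 times by effective library sizes (TMM). The median ratio of all miRs in this pair was 1.67, and that of 14 members averaging 10 reads or more was 3.25.

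OZ serum was followed by unlike changes of the cluster in different stem cells. The sum with OZ serum was 0.0971 times that of C (0.0836 to 0.112) in ZF4-SC, 1.41 times (1.27 to 1.57) in ZL4-SC, 1.06 times (0.947 to 1.18) in ND-MDSC and 2.33 times (2.05 to 2.64) in ED-MDSC. The value of ZL4-SC fell to the other side of 1, at 0.874, when TMM sizes were used. With 1 library per condition, the difference between stem cells was not tested. ED-MDSC also differed from the others in run and perhaps in the donors of the serum.

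In ZF4-SC, members at several places of the locus were lower with OZ serum. MiR-541-5p had 46 reads with OZ serum against 617 in C, miR-409a-5p 31 against 510, miR-409b 9 against 119, miR-379-5p 3 against 63 and miR-127-3p 5 against 50. MiR-411-5p, which shares the array with 4 of these, had 63 reads against 47, a ratio of 1.06 (0.714 to 1.58). Of 12 members averaging 10 reads or more in the 2 libraries, 11 were at least 2-fold lower with OZ serum, where 27.2% of all 279 such miRs were, and the median ratio was 0.0593 for the members and 0.682 for all. Of the 12, 8 had under 10 reads with OZ serum and reached the average only through C. Of the 4 with 10 reads or more in both, 3 were at least 2-fold lower. The library with OZ serum was the deeper, with 8218113 reads against 6492161. It was also set against ZF4-SC with LZ serum, and the sum was 0.0992 times that value (0.0854 to 0.115). Much of this list was also low without any serum, in ZF4-SC-C of the lipid run over the serum run. The sum there was 0.143 times as high, miR-541-5p 0.0192, miR-409a-5p 0.0319, miR-409b 0.310 and miR-379-5p 0.375 times. MiR-411-5p was at 1.04 times there, and miR-127-3p, at 1.12 times, was not lower. Whether the values with OZ serum go beyond this spread was not tested.

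In ED-MDSC the direction was mostly the opposite. Of 10 members averaging 10 reads or more, 8 were at least 2-fold higher with OZ serum than in C, where 38.5% of all 288 such miRs were. Of the 10, 5 had under 10 reads in 1 of the libraries, and of the other 5, 4 were at least 2-fold higher and 1 lower. MiR-409b had 189 reads against 21, a ratio of 13.8 (8.75 to 22.8), miR-382-5p 62 against 8, miR-127-3p 45 against 10 and miR-409a-5p 123 against 80. MiR-541-5p was lower, with 30 reads against 107, and so was miR-1247-5p with 0 against 94, at least 20.5-fold, taking 3 reads as the floor. Blood-cell miRs (6 of 6 with reads) were at 4716 and 1354 CPM in ED-MDSC with OZ and LZ serum and at 141.0 to 784.2 in the 4 without rat serum, and liver miR-122-5p at 27.9 and 13.5 against 0 to 7.14. The neural list was at 404.5 to 626.6 with rat serum and 95.6 to 126.2 without. In ZF4-SC of the serum run the blood list was at 12.3 with OZ serum, 99.8 with LZ serum and 14.8 in C. The part of these in the cluster values was not tested.

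Taken over the 4 stem cells as replicates, with the stem cell as a block, OZ serum against C gave 0 calls among 10 members and 0% of 300 miRs in edgeR. OZ serum was treated as the same agent in all of them, whatever its donors. At an unadjusted p under 0.05 there was 1 member, miR-1247-5p, which was lower with OZ serum in 4 of 4 stem cells by CPM. It had 0 reads with OZ serum against 34 in C in ZF4-SC, 1 against 11 in ZL4-SC and 0 against 94 in ED-MDSC. In ND-MDSC it had 285 in the deeper library with OZ serum against 195. That was a ratio of 0.837, with an interval for counting error (0.695 to 1.01) that includes 1. How many of all miRs were lower in 4 of 4 was not counted. The log2 difference of miR-1247-5p was -3.77 ± 1.40 (SE; edgeR adjusted p = 0.685). The call depended on the tool. DESeq2 called miR-1247-5p (adjusted p = 0.0458), where 4 of 300 miRs were called. So did edgeR with no filter on low counts (adjusted p = 0.00035), where 5 of 590 were. Over all alternatives its adjusted p ran up to 0.997. MiR-541-5p (-1.18 ± 0.77; edgeR adjusted p = 0.823) and miR-1247-3p (-0.999 ± 1.20; edgeR adjusted p = 0.958) followed.

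With LZ serum, the cluster sum of the female cells was near that of C. The sum with LZ serum was 0.979 times that of C (0.914 to 1.05) in ZF4-SC and 1.04 times (0.923 to 1.16) in ZL4-SC, both within counting error of 1, and 0.854 times (0.734 to 0.993) in ED-MDSC. Leaving out miR-770 and miR-1247 turned the last value to 1.12. In the test of LZ serum against C, 0 of 12 members and 0% of 295 miRs passed in edgeR, with 0 members at an unadjusted p under 0.05 and 0 called by DESeq2. The smallest adjusted p, 0.857, was shared by 7 members, among them miR-1247-5p (log2 difference -2.56 ± 1.67), miR-127-3p (-0.58 ± 0.42) and miR-409a-5p (-0.60 ± 0.27) in the edgeR test. In the test of OZ against LZ serum, 0 of 11 members passed, where 0.341% of 293 miRs did, with 0 members at an unadjusted p under 0.05 and 0 called by DESeq2. There, too, the smallest adjusted p, 0.967 in edgeR, was shared, by miR-434-5p (-1.05 ± 0.87), miR-411-5p (0.59 ± 0.55), miR-541-5p (-0.74 ± 0.77) and miR-379-5p (-0.72 ± 0.83).

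**Figure D4:**
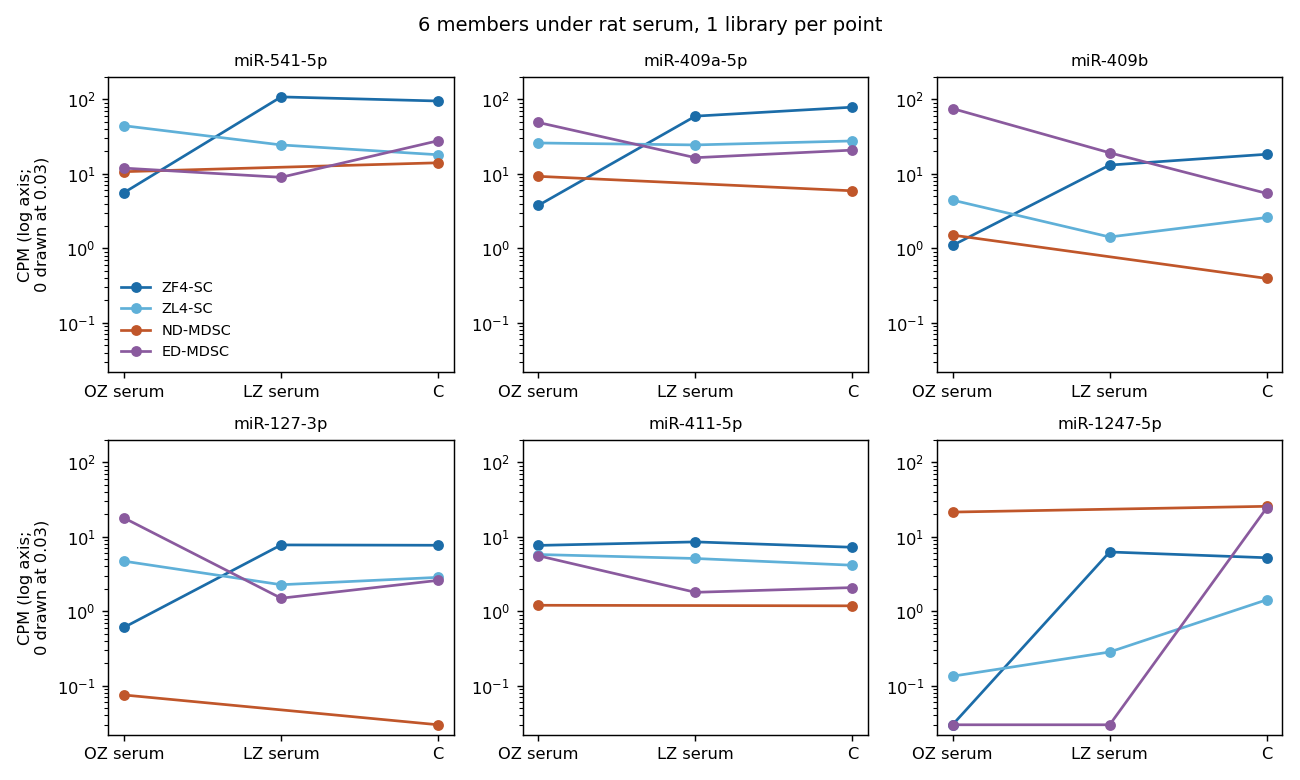
CPM (log axis, 0 drawn at 0.03) of 6 members with OZ serum, with LZ serum and as C, 1 line per stem cell and 1 library per point (ND-MDSC has no LZ serum library). The ZF4-SC line drops at OZ serum for miR-541-5p (5.60 against 95.04 in C) and the ED-MDSC line climbs there for miR-409b (75.2 against 5.47 in C), while miR-411-5p stays between 1.18 and 8.55.

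Palmitate and cholesterol were given to ZF4-SC in the lipid run, where depth differed 45.6-fold between libraries. MiR-411-5p, in CPM, was 5.85 with albumin, 222.4 with palmitate at 0.5 mM and 1134 at 1 mM, from 28, 184 and 119 reads. In the test of palmitate against albumin, with both doses taken as replicates, it had a log2 difference of 6.24 ± 1.61 (SE; edgeR adjusted p = 0.135). None of 5 members passed, as with 0% of all 219 miRs, and 1 had an unadjusted p under 0.05. DESeq2 and edgeR with no filter each called miR-411-5p (adjusted p = 6.9e-06 and 1.1e-07), where 16 of 219 and 20 of 444 miRs were called. With 1 dose left out the log2 difference was 4.94 without 1 mM and 6.91 without 0.5 mM. MiR-541-5p had a log2 difference of 1.61 ± 1.35 (edgeR adjusted p = 0.695) and miR-127-3p 2.16 ± 1.89 (edgeR adjusted p = 0.703), and at 1 mM, with 104902 reads, miR-541-5p, miR-409a-5p and miR-409b were at 0, which allows up to 28.6 CPM.

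Cholesterol, set against its carrier, had the opposite sign for the same miR. MiR-411-5p was at 27.3 and 10.9 CPM with cholesterol at 50 and 100 mg/dl, against 364.4 and 56.4 in the 2 cyclodextrin libraries. These values did not overlap, but how many of all miRs were apart in this way was not counted. The log2 difference was -3.40 ± 1.03 (SE; edgeR adjusted p = 0.292). Of 5 members 0 passed, where 0.913% of 219 miRs did, and 1 had an unadjusted p under 0.05. MiR-411-5p was called by DESeq2 (adjusted p = 0.0103), where 7 of 219 miRs were, and by edgeR with no filter (adjusted p = 1.3e-05), where 6 of 444 were. Its log2 difference was -1.64 without the first cyclodextrin library and -4.26 without the second. Without cholesterol at 100 or at 50 mg/dl it was -2.84 and -4.32. The next smallest, an adjusted p of 0.993 in edgeR, was shared by miR-541-5p (-1.196 ± 1.00), miR-409b (-1.45 ± 1.65), miR-127-3p (0.99 ± 1.41) and miR-409a-5p (0.17 ± 1.27).

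The 2 cyclodextrin libraries, with the same label, differed by 3.24 times (2.90 to 3.62) in the cluster sum, the first over the second, and by 6.46 times (5.46 to 7.65) in miR-411-5p. Of 8 members averaging 10 reads or more, 3 were at least 2-fold higher in the first, where 20.1% of 224 miRs were. The first had 803975 reads and the second 4770210. In the 3 shallowest libraries (palmitate at both doses and the first cyclodextrin) miR-411-5p was at 222.4 CPM or more, and in the 5 deeper ones at 56.4 or less. The blood list was at 326.3 to 565.9 CPM in those 3 and 13.6 to 247.3 in the other 5. Neither depth nor these miRs were tested as a part of the result. Without miR-411-5p the cluster sum was 104.9 with palmitate at 1 mM and 34.1 with albumin.

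**Figure D5:**
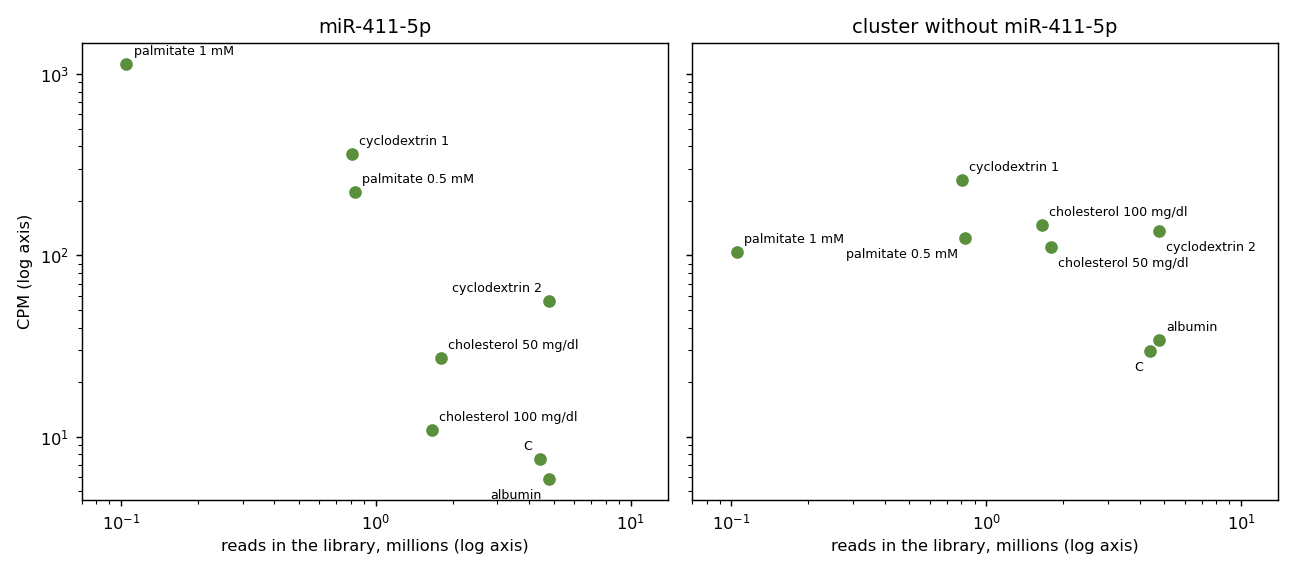
CPM (log axis) of miR-411-5p, left, and of the other 87 members summed, right, against the depth of each of the 8 ZF4-SC libraries of the lipid run (log axis). MiR-411-5p runs from 1134 in the shallowest library, palmitate at 1 mM, to 5.85 with albumin, while the rest spans 29.6 to 260.

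Late against early diabetes could be compared in 1 library each. The cluster sum was 0.289 times as high (0.215 to 0.381) in LD-MDSC-C as in ED-MDSC-C, at 30.9 against 107.0 CPM. Of only 4 members averaging 10 reads or more, 3 were at least 2-fold lower, where 28.3% of 258 miRs were, and these 3 had under 10 reads in LD-MDSC-C. MiR-541-5p had 1 read against 107, a ratio of 0.0194 (0.000488 to 0.111), miR-1247-5p 2 against 94, a ratio of 0.0443 (0.00528 to 0.164), and miR-409a-5p 7 against 80, while miR-409b had 13 against 21 in the shallower LD-MDSC-C library, a ratio of 1.29 (0.593 to 2.70). MiR-770-5p was highest in LD-MDSC-C of all libraries, at 4.33 CPM from 8 reads, against 0.521 from 2 reads in ED-MDSC-C. ED-MDSC-C was the lowest of the 6 ED-MDSC libraries, which ran up to 3.90 CPM, with LZ serum. In ED-MDSC, the library with albumin had 1.42 times (1.22 to 1.65) the sum of C and the library with cyclodextrin 1.37 times (1.17 to 1.61), where the median ratio of all miRs was 1.16 and 1.13, and cholesterol had 0.699 times (0.580 to 0.842) the value of cyclodextrin.

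Other miRs of the locus, outside the rule, were rarer still. Of 8 such entries 5 had reads, the most being 11 of miR-673-3p and 10 of miR-3072 over all 23 libraries. The striated muscle miRs, defining for differentiated muscle, were at 0 to 11.2 CPM in the 14 female and 0 to 4.11 in the 9 male libraries, with miR-133a-3p and miR-133b-3p at 0 in all. MiR-133a-3p is also in an opposite-strand pair, so its 0 is uncertain.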

How the data were processed

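The authors had small RNA sequenced by Norgen Biotek and reads assigned to miRs of miRBase Release 18. The deposited values are raw read counts for the same 792 entries in 3 tables, 1 per run. Aligner, mismatches, strand and reads matching several miRs are not given in the sources used here. The labels name quadriceps, the study's methods gastrocnemius, for the male cells. Samples were grouped by stem cell and agent. The members and lists were chosen with earlier results of these data known.

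Counts were divided by library totals and given per 1000000 reads (CPM). Intervals came from scipy 1.17.1 (95%, Wilson for shares, exact Clopper-Pearson for ratios), cover counting error only, and treat reads as independent molecules, which reads without molecular identifiers are not. The 7 tests used edgeR 4.0.16 (R; quasi-likelihood, TMM, filter of 10 reads on average over the fitted libraries, Benjamini-Hochberg at 0.05), with agent or stem cell as a block, except in the lipid run (8 libraries, 1 factor). P-values measure the spread between these libraries, which may be technical.

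Alternatives were library totals, DESeq2 1.42.0, no filter, a filter of 100 reads on average, leaving out libraries or stem cells, and no block. For sums they were TMM sizes and dropping named members, 2 of these (miR-409b, miR-411-5p) chosen after seeing the data. Named are the 6 members with the highest mean, members past the threshold or the 3 smallest adjusted p, hairpins averaging 100 reads or more, and members sharing a seed. Others given by name were chosen after their values were seen. RefSeq sequences (GRCr8) were matched by name for 86 of 88 members.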

Additional observations from a re-analysis of the deposited data

Results flagged for a closer look

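Some values moved to opposite sides of C in different stem cells, each with an interval for counting error on its own side of 1. There was 1 library per condition, so the difference between stem cells was not tested. With OZ serum the cluster sum was 2.33 times that of C in ED-MDSC and 0.0971 times in ZF4-SC. MiR-541-5p was at 2.45 times in ZL4-SC and 0.0589 times in ZF4-SC. MiR-409a-5p was at 2.35 times in ED-MDSC and 0.0480 times in ZF4-SC, and miR-127-3p at 6.88 and 0.0790 times in the same stem cells. MiR-409b, which cannot be told from miR-409a-3p, was at 13.8 times in ED-MDSC and 0.0597 times in ZF4-SC. With LZ serum, miR-541-5p was at 1.35 times C in ZL4-SC and 0.323 times in ED-MDSC, and miR-409b at 3.51 times in ED-MDSC and 0.716 times in ZF4-SC. MiR-541-5p with OZ serum was compared within the serum run. For the values that set ED-MDSC beside ZF4-SC or ZL4-SC, stem cell, run and perhaps serum donors cannot be told apart.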

How the results depend on the processing

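Among counts of members called in edgeR, ZF4-SC against ZL4-SC gave 0, and 1 with no filter on low counts (miR-379-5p, lower in ZF4-SC). Leaving out libraries in turn gave 0 to 6. Pelvic floor against limb stem cells gave 6, and 0 under a filter of 100 reads, which left 2 members to test. Leaving out pelvic floor libraries in turn gave 1 to 6. Leaving out an ND-MDSC library leaves 1 on the limb side, so no count is given. OZ serum against C gave 0, and 1 with DESeq2 and 1 with no filter, where 4 of 300 and 5 of 590 miRs were called. Cholesterol against cyclodextrin gave 0, with 1 by DESeq2 and 1 with no filter, where 7 of 219 and 6 of 444 miRs were called. Palmitate against albumin gave 0, with 1 by DESeq2 and 1 with no filter, where 16 of 219 and 20 of 444 miRs were called. It could not be run without the only albumin library. The tests of LZ serum against C and of OZ against LZ serum gave 0 under every alternative run. Without the agent or the stem cell as a block, the count was 7 for pelvic floor against limb and 0 for the other 4 tests that had one. For ZF4-SC against ZL4-SC, the block moved the calls over all miRs to 74, against 34 without it.

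Scaling by TMM sizes shifted log2 ratios of pairs by -1.06 to 0.66. It moved the ratio of cluster sums to 0.213 for ZF4-SC-C of the lipid run over the serum run, 1.57 for ZF4-SC-C over ZL4-SC-C, 2.73 for ZF4-SC-C over ND-MDSC-C and 1.74 for ZL4-SC-C over ND-MDSC-C. For OZ serum over C it gave 1.60 in ED-MDSC, 1.22 in ND-MDSC, 0.146 in ZF4-SC and, with the direction turned, 0.874 in ZL4-SC, and for LZ serum over C 0.554 in ED-MDSC. Without miR-541-5p, the most abundant member, the ratios were 0.215 for ZF4-SC-C of the lipid over the serum run, 2.68 for ZF4-SC-C over ZL4-SC-C, 3.15 for ZF4-SC-C over ND-MDSC-C and 0.383 for LD-MDSC-C over ED-MDSC-C. For OZ serum they were 2.99 in ED-MDSC, 0.119 in ZF4-SC and 1.10 in ZL4-SC, and for LZ serum 0.889 in ZF4-SC and, turned, 1.04 in ED-MDSC. Without miR-770 and miR-1247 they were 9.02 for ZF4-SC-C and 2.76 for ZL4-SC-C over ND-MDSC-C, 3.16 for OZ serum in ED-MDSC, 1.21 in ND-MDSC, and, turned, 1.12 for LZ serum in ED-MDSC. Without miR-409b, ED-MDSC had 1.71 with OZ and 0.712 with LZ serum. Without miR-411-5p, ZF4-SC had 0.0695 with OZ serum, and 0.117 for ZF4-SC-C of the lipid over the serum run. The cause of these shifts was not tested. Of the values of single members under an alternative, 164 stayed on their side of the threshold, 12 passed it, 16 missed it and 0 turned direction where a call was made. Of the uncalled differences, 4 changed sign. These were miR-1247-3p with OZ serum against C (0.56 without ED-MDSC, 0.19 without the block), miR-541-5p with OZ against LZ serum (0.49 without ZF4-SC), miR-409b with cholesterol (0.90 without the first cyclodextrin library) and miR-541-5p with palmitate (-7.39 without 0.5 mM, which leaves the library at 0 reads).

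Depth limits the rarer members, since 27 had fewer than 10 reads over all libraries, and a count of 0 with palmitate at 1 mM allows up to 28.6 CPM. Conditions with 1 library have no replicate check, and the 2 pairs of libraries with the same label had ratios of 0.143 and 3.24 in the cluster sum.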

Other observations

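Over all 792 entries, 47 pairs of RefSeq-matched miRs lay on overlapping bases of opposite strands. In 8 pairs the complementarity covered the whole length of both entries, and in all 8 both entries were listed at 0 in every library (among them let-7a-5p and miR-125b-5p). In 24 pairs it covered the whole length of the shorter entry only. Of these, 20 had reads of the longer entry and none of the shorter, 4 had both at 0, and 0 had reads of the shorter. In the 15 pairs with partial complementarity, 4 had reads of both entries, 8 of 1 entry only and 3 of neither. Members of the cluster were in 10 of the 47 pairs, and 7 of these had both entries at 0. How the counting treated strand and reads with several matches is not given in the sources used here, and the cause was not tested. A level of 0 for such an entry is therefore not a measure of that miR.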
